A study of Mus musculus with 12 samples.

Results

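The genes Mpo, Elane, Prtn3, Ctsg and Srgn encode the main contents of the primary, or azurophil, granules of myeloid cells. They were described by genotype and by array on 12 expression arrays of mouse blood monocytes, as 5 of 23279 measured genes. Each has 1 feature on the array, named by its Entrez number, and all 5 were measured. They were chosen by name and on values of these arrays that were already known, above all the difference between 2 sets of arrays described below, so that difference is a description without a test. Although the 5 genes are grouped as granule enzymes, only 4 of them encode enzymes: serglycin, the product of Srgn, is a proteoglycan.

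The study measured cells labelled as inflammatory blood monocytes, which its design text describes as sorted for CD11b, CD115 and high Ly6C, while a treatment protocol in the labels is about CD4 T cells from lymph nodes; source names and design text were followed here. The genotype label reads TRIM33 for 6 arrays and WT for 6; mice of both genotypes were of strain C57BL/6 LyzCre and 6 to 8 weeks old, and no treatment or time point is named for the monocytes. LyzCre denotes Cre recombinase under lysozyme gene control, which acts in myeloid cells, and the series title places Trim33 deficiency in mature myeloid cells; the sources used here state neither whether WT mice carry the recombinase nor which part of Trim33 is deleted. Titles mark 2 arrays of each genotype as mixes. Since no label ties an array to an animal of its own, p-values measure only how these arrays spread, and that spread may be technical.

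Primary granules are the first granules that a developing myeloid cell makes. Their enzyme genes are transcribed in promyelocytes and in early monocyte precursors and are shut down as the cell matures, while the finished proteins stay stored. Myeloperoxidase, encoded by Mpo, uses hydrogen peroxide and chloride to make hypochlorous acid. Elane, Prtn3 and Ctsg encode neutrophil elastase, proteinase 3 and cathepsin G, serine proteases that are trimmed to their active form by the dipeptidyl peptidase encoded by Ctsc. Serglycin carries chains of negatively charged sugar that hold such basic proteins in the granule, and mature leukocytes go on transcribing its gene.

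The arrays form 2 sets of 6, each with 3 TRIM33 and 3 WT arrays, told apart here by sex-linked genes, which are not among the 5. The Xist set holds replicates 4 to 6 of TRIM33 and 1 to 3 of WT, and there Xist, the RNA of the silenced X chromosome, had log2 values of 9.01 to 10.18. The Y set holds the remaining replicates, with Xist at 3.36 to 3.64. Eif2s3y and Kdm5d, both Y-linked, had values of at least 5.73 throughout the Y set, and Y-linked genes stayed between 2.19 and 3.27 on the remaining arrays. Clustering over all features gave the same sets for 12 of 12 arrays. Array set and sex-linked genes cannot be told apart. All 4 mixes lie in the Y set, together with 2 arrays not titled as mixes, TRIM33 replicate 1 and WT replicate 4. Array medians lay between 4.16 and 4.25. Of the genes for the sorting markers, Ly6c2, which encodes the Ly6C antigen, had a mean of 12.33 in the Xist set and 12.37 in the Y set, with overlap. Csf1r, which encodes CD115, had means of 9.95 and 11.02, and Itgam, which encodes CD11b, 9.66 and 10.49. Csf1r and Itgam were thus lower in the Xist set without overlap, where 6.59% of all genes were. Trim33 read 6.06 to 6.23 on the TRIM33 arrays and 6.81 to 7.05 on the WT arrays, without overlap; it fell by 0.79 in TRIM33 arrays (SE 0.067, n = 6 against 6, limma adjusted p = 0.000637). Which part of the transcript its probes read is not known here.

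The sequences below are the 250 bases before each gene's start, 5′ to 3′ on the gene's own strand, from RefSeq promoter windows of build GRCm38.p6; they are shown because the 4 enzyme genes differed between the array sets in one direction and Srgn in the other. The windows are chr11:87793534-87793783 on the plus strand for Mpo, chr10:79886062-79886311 and chr10:79879417-79879666 on the plus strand for Elane and Prtn3, chr14:56102575-56102824 on the minus strand for Ctsg and chr10:62527446-62527695 on the minus strand for Srgn, whose outermost of 2 listed starts was used. Capitals mark exact matches, on either strand, to letters of binding motifs of myeloid transcription factors or of the TATA box.
Mpo: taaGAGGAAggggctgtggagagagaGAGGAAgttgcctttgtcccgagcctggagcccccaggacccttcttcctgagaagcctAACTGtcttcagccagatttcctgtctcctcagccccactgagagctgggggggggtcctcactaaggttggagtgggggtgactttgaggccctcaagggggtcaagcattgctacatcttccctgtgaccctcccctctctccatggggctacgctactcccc
Elane: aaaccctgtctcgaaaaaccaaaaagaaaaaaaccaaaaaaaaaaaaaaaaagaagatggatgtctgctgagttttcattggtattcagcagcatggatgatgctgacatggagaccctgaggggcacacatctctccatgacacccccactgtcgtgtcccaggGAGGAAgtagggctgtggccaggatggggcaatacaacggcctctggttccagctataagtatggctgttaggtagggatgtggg
Prtn3: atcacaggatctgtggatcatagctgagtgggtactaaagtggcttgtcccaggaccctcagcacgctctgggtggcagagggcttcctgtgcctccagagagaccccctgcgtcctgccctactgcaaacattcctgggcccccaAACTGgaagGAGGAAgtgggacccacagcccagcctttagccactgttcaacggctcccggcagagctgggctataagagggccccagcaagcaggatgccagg
Ctsg: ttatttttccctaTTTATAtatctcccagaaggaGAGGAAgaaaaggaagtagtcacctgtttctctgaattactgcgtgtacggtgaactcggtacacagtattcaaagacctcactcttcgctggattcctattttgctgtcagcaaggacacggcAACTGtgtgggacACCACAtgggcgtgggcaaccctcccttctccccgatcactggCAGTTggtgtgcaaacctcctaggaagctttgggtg
Srgn: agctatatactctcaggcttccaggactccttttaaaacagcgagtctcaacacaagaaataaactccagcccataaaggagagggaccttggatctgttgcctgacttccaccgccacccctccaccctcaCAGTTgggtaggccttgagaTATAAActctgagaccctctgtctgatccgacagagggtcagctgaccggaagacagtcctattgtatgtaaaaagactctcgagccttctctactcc

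The letters GAGGAA, a core of the motif of PU.1, a factor that drives myeloid genes, stand in the windows of all 4 enzyme genes and not in that of Srgn; 23.3% of 32851 windows of this length hold them on either strand. Mpo has 2 such matches, which end 242 and 219 bases before the start. Those of Elane and Prtn3 end 80 and 90 bases before it, and that of Ctsg 211. The letters AACTG, from the motif of MYB, a factor of dividing precursors, were found once in Mpo and Prtn3, at 2 places in Ctsg, and once in Srgn, against 39.1% of all windows. TGTGGT, from the RUNX motif, matched in Ctsg only (14.0% of all windows), and TATAAA matched in Ctsg, on the opposite strand, and in Srgn (12.4%). TTNNGNAA, from the C/EBP motif (36.8%), and AGATAA, from the GATA motif (9.99%), matched in none of the 5. No matched bases were shared between different motifs. These matches describe letters in a window and are no measure of binding.

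The 4 enzyme genes separated the array sets completely, and serglycin separated them the other way by a smaller amount. Mpo read 11.37, 11.13 and 11.54 on the log2 scale on the TRIM33 arrays of the Xist set and 11.55, 10.91 and 11.41 on its WT arrays. In the Y set it read 4.74, 5.03 and 5.02 on the TRIM33 arrays and 5.15, 4.90 and 5.02 on the WT arrays. Every array of the Xist set thus lay at least 5.75 above every array of the Y set, and within a set the genotypes overlapped. The set means of Mpo were 11.32 ± 0.25 and 4.98 ± 0.14 (SD, n = 6), a difference of 6.34, the third highest of all 23279 genes.

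Elane, the elastase gene, read 10.77, 10.49 and 10.43 on the TRIM33 arrays of the Xist set and 10.42, 10.38 and 10.27 on its WT arrays, against 3.98, 5.56 and 4.63 and 3.81, 4.24 and 4.21 in the Y set. The difference of its set means was 6.05, from 4.41 ± 0.63 in the Y set to 10.46 ± 0.17 in the Xist set. Ctsg, the cathepsin G gene, read 10.97, 10.94 and 10.85 on the TRIM33 arrays and 10.85, 10.81 and 10.71 on the WT arrays of the Xist set. In the Y set it read 5.02, 6.48 and 5.70 on the TRIM33 arrays and 5.25, 5.12 and 4.86 on the WT arrays. Its set means differed by 5.45, from 5.40 ± 0.60 to 10.86 ± 0.093. Both genes were tightly grouped where they were high and more widely spread where they were low. The low values were not confined to the mixes: on the 2 arrays of the Y set not titled as mixes, TRIM33 replicate 1 and WT replicate 4, Mpo read 4.74 and 5.15, Elane 3.98 and 3.81, and Ctsg 5.02 and 5.25.

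Prtn3, the proteinase 3 gene, stood nearer to the level of the Xist set in the Y set than the other 3 enzyme genes did. It read 10.63, 10.64 and 10.73 on the TRIM33 arrays and 10.49, 10.05 and 10.56 on the WT arrays of the Xist set, and 6.38, 8.41 and 7.06 and 7.25, 6.46 and 6.60 in the Y set. Its set means of 10.52 ± 0.24 and 7.03 ± 0.76 differed by 3.49, and the closest arrays of the sets were 1.63 apart. The gap was 4.70 for Elane and 4.23 for Ctsg. RMA values of different features are not on one scale of transcript number, so these sizes rank differences and not levels, and a feature near its own floor can show only part of a difference.

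**Figure D1:**
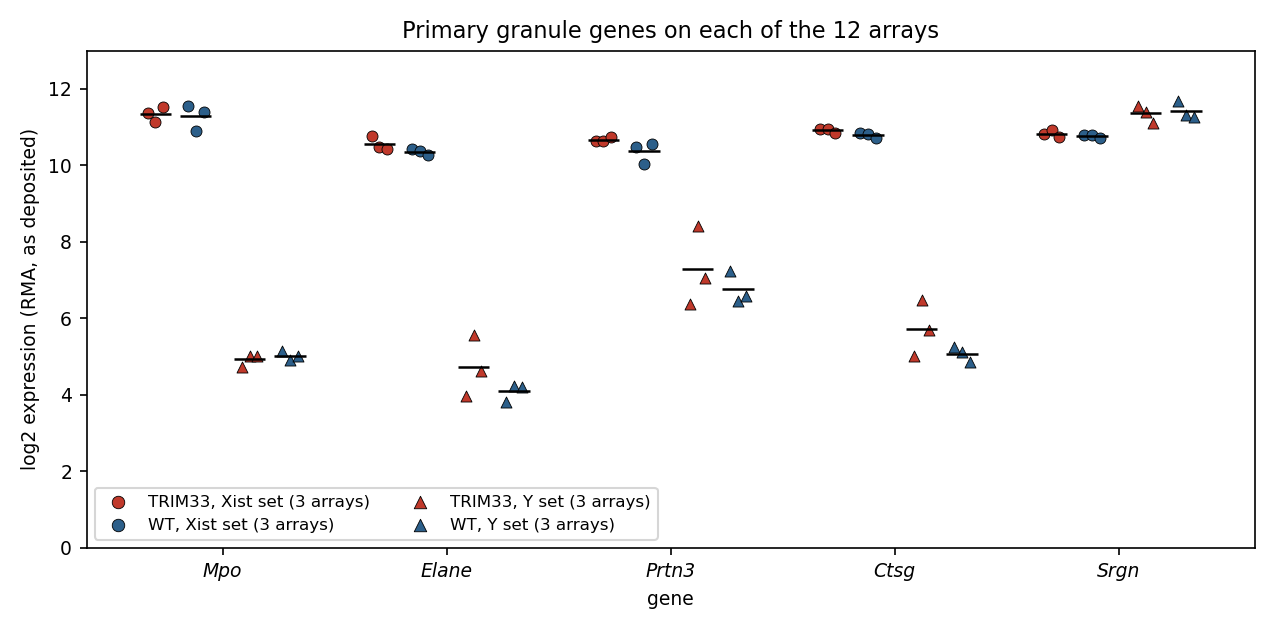
Deposited log2 expression of the 5 primary granule genes (horizontal axis) on the 12 arrays (vertical axis), by genotype (colour) and array set (circles for the Xist set, triangles for the Y set), with a bar at each mean of 3 arrays. Mpo, Elane, Prtn3 and Ctsg lie above 10 on every array of the Xist set and below 8.5 on every array of the Y set, while Srgn is slightly higher in the Y set.

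Srgn, the serglycin gene, ran the other way. It read 10.83, 10.93 and 10.74 on the TRIM33 arrays and 10.79, 10.78 and 10.71 on the WT arrays of the Xist set. In the Y set it read 11.56, 11.40 and 11.12 on the TRIM33 arrays and 11.68, 11.31 and 11.26 on the WT arrays. Every array of the Y set lay above every array of the Xist set, by at least 0.18, and the set means were 11.39 ± 0.21 and 10.80 ± 0.078, a difference of -0.59 (Xist set minus Y set). So 4 of the 5 genes were higher in the Xist set without overlap, where 7.45% of all genes were, and 1 was lower without overlap, where 6.59% were. The median difference was 5.45 over the 5 genes and 0.0015 over all genes. In RNA from a sorted population, fewer cells that hold a transcript and less of it in each cell cannot be told apart.

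Within the Y set the 3 protease genes shared their highest array, and Mpo did not. Elane, Prtn3 and Ctsg were all highest on TRIM33 replicate 2, a mix, where they lay 0.93, 1.16 and 0.78 above the next highest array on the log2 scale. Mpo read 5.03 on that array, within the 4.74 to 5.15 of the other 5, and Srgn 11.40, within 11.12 to 11.68. TRIM33 replicate 2 was the highest array of the Y set for 16.6% of all genes. It was the highest for 10 of 13 neutrophil markers, where the list mean was 7.04 and that of the remaining arrays 5.89 to 6.29, and for 7 of 7 proliferation markers, with 5.64 against 4.15 to 4.61. Of 10 precursor markers 3 were highest there (6.51 against 6.31 to 6.43), and of 8 monocyte markers 2 (10.60 against 10.62 to 11.09). Their part in the protease values was not tested.

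**Figure D2:**
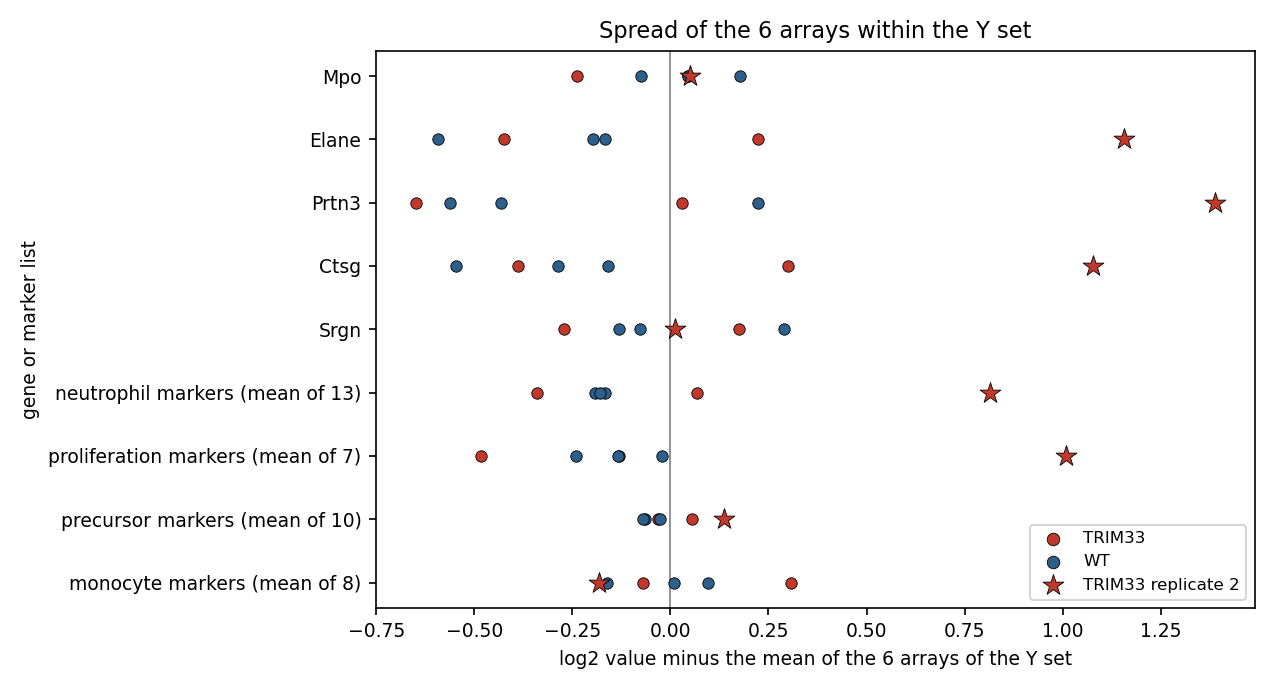
Spread of the 6 arrays of the Y set: log2 value on each array minus the mean of the 6 (horizontal axis) for the 5 genes and for the means of 4 marker lists (vertical axis), coloured by genotype. TRIM33 replicate 2 (star) stands above the other 5 arrays for Elane, Prtn3, Ctsg and the neutrophil, proliferation and, by less, precursor marker means. It stands slightly below them for the monocyte marker mean and within them for Mpo and Srgn.

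The comparison of genotypes asks whether these genes differ in monocytes when Trim33 is targeted. None of the 5 passed the test, in the fit of genotype alone (limma, Benjamini-Hochberg adjusted p = 0.999984 for each; 0.0215% of all genes passed) or with the array set as a block (0.0387% passed). Because the sets are balanced over genotype, both fits give the same differences, and the block takes the spread between sets out of the error. The log2 difference, TRIM33 minus WT, was 0.42 for Elane (95% interval -0.012 to 0.86 with the block, limma adjusted p = 0.937), 0.41 for Prtn3 (-0.15 to 0.96, adjusted p = 0.941) and 0.39 for Ctsg (-0.013 to 0.80, adjusted p = 0.937). Mpo differed by -0.018 (-0.27 to 0.23, adjusted p = 0.996) and Srgn by 0.0088 (-0.20 to 0.22, adjusted p = 0.998). Without the block the interval of Mpo ran from -3.84 to 3.80 and that of Srgn from -0.40 to 0.42. The 6 arrays of each genotype overlapped for all 5 genes (0.198% of all genes did not).

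Within the Xist set, 3 arrays against 3, no member passed either (0.0129% of all genes did). Elane differed by 0.21 (95% interval -0.10 to 0.52, limma adjusted p = 0.962), Prtn3 by 0.30 (-0.052 to 0.65, adjusted p = 0.962) and Ctsg by 0.13 (-0.14 to 0.40, adjusted p = 0.962). All 3 TRIM33 arrays of that set lay above its 3 WT arrays for Elane and Prtn3, and 4.41% of all genes did the same. For Elane this rests on a narrow gap, with the lowest TRIM33 array at 10.425 and the highest WT array at 10.419. For Ctsg, which overlapped, these were 10.853 and 10.854. Of 60 marker genes of other and of dividing cells and of monocytes, 6 were higher in TRIM33 without overlap in that set, S100a8, S100a9, Prg2, Prg3, Nkg7 and Birc5, and 2 lower, Csf1r and Ighm (5.86% of all genes were lower). Prg2 read 7.03 to 7.53 on its TRIM33 arrays and 4.81 to 6.05 on its WT arrays. List means of basophil, mast cell and eosinophil markers were 3.92 to 4.13 and 3.71 to 3.82, those of neutrophil markers 7.08 to 7.42 and 6.85 to 7.37. Those of B cell markers were 5.05 to 5.19 on its TRIM33 arrays, below each of its WT arrays. Their part in the Elane and Prtn3 values was not tested. Within the Y set the differences were 0.64 for Elane (-0.17 to 1.44), 0.51 for Prtn3 (-0.55 to 1.58) and 0.66 for Ctsg (-0.083 to 1.40; limma adjusted p = 0.997 for each), with overlap for all 5 genes (10% of all genes had none), and 0.0344% of all genes passed. Without TRIM33 replicate 2 they were 0.22, -0.053 and 0.29, so that Prtn3 changed sign. With the block and without that array they were 0.21, 0.14 and 0.20. Among the 4 mixes alone, 2 of each genotype and TRIM33 replicate 2 among them, they were 0.87 (SE 0.30), 1.21 (SE 0.41) and 1.11 (SE 0.27; limma adjusted p = 0.967 for each). Among the 8 arrays not titled as mixes, fitted without the block, they were 0.20 (SE 1.89), 0.0070 (SE 1.09) and 0.039 (SE 1.65, limma adjusted p = 0.999882 for each). These 8 arrays come from both sets, so the spread between sets is in that error. Such a fit cannot show that a difference is absent outside the mixes.

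**Figure D3:**
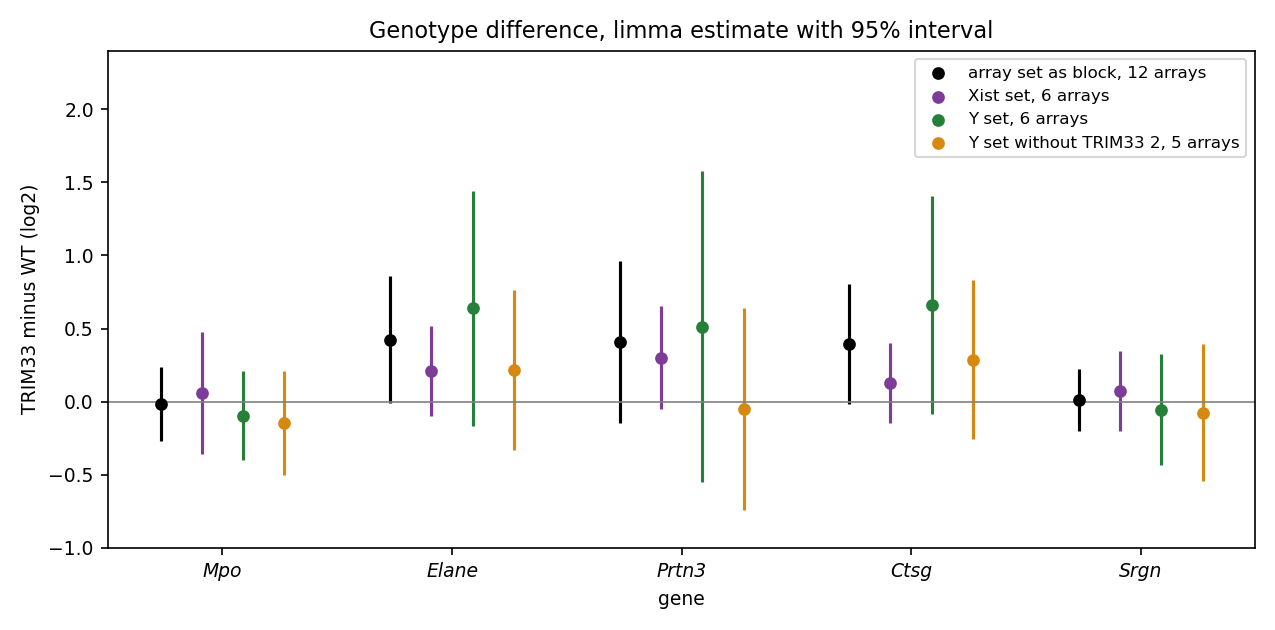
Genotype difference of the 5 genes (horizontal axis) as limma's estimate of TRIM33 minus WT on the log2 scale with its 95% interval (vertical axis), with the array set as a block, in each array set, and in the Y set without TRIM33 replicate 2. All intervals hold 0; the wide intervals of Elane, Prtn3 and Ctsg in the Y set shrink when that array is left out.

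The genotype difference was not shown to differ between the array sets. The interaction of genotype and set, Xist set minus Y set, was -0.53 for Ctsg (95% interval -1.33 to 0.26), -0.43 for Elane (-1.30 to 0.44), -0.21 for Prtn3 (-1.37 to 0.94), 0.16 for Mpo (-0.36 to 0.68) and 0.13 for Srgn (-0.31 to 0.57). By limma the adjusted p was 0.996 for each of the 5, and 0.0043% of all genes passed.

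Other genes of granule making were read from fixed lists, with the share of all genes whose sets did not overlap, 14%, as the background. Of 8 measured genes for other primary granule contents, 3 were higher in the Xist set without overlap and 1 lower, with a median difference of 0.15. Cd63, a tetraspanin of the granule membrane, had set means of 6.40 ± 0.23 and 4.59 ± 0.38 (Xist set and Y set, SD, n = 6), and Prss57, a further granule serine protease, 5.67 ± 0.30 and 4.55 ± 0.23. Arsb, a lysosomal sulphatase, was the third. Man2b1, a lysosomal mannosidase, was lower, at 9.86 ± 0.094 and 10.33 ± 0.18.

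Lyz1, a lysozyme gene of that list, was higher in TRIM33 arrays in both sets, and within each genotype it was higher in the Y set. It read 9.72 to 10.28 on the TRIM33 arrays and 5.48 to 6.98 on the WT arrays of the Xist set, and 11.46 to 11.99 and 8.20 to 8.72 in the Y set. In the fit blocked on array set, Lyz1 rose by 3.56 on the log2 scale in TRIM33 arrays (SE 0.21; limma adjusted p = 1.25e-06, higher on 6 of 6 arrays than on any WT array), and without the block it missed the threshold (adjusted p = 0.114). It was the only gene of the 7 lists of granule making to pass with the block; without it 0 of the 114 genes measured in those lists passed in limma and 3 had an unadjusted p below 0.05 (2.63%, against 3.07% of all genes), and 7 did in the blocked fit (6.14%, against 5.28%).

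Of 21 measured peroxidase and serine protease relatives, 1 was higher in the Xist set without overlap and 1 lower. The higher was Mcpt8, a serine protease gene also listed as a marker of basophils, mast cells and eosinophils (4.97 ± 0.24 and 3.58 ± 0.15). The lower was the granzyme gene Gzma (3.01 ± 0.37 and 4.36 ± 0.43). The eosinophil and milk peroxidase genes Epx and Lpo, which lie beside Mpo, differed by 0.26 and -0.22 with overlap. Among 12 protease inhibitors, Slpi, a secreted inhibitor of elastase, was higher without overlap (11.27 ± 0.16 and 10.57 ± 0.24) and Serpinb8 lower (3.96 ± 0.52 and 6.15 ± 0.32). Serpinb1a, which inhibits all 3 granule proteases inside the cell, had means of 8.30 ± 0.32 and 7.25 ± 0.46 with overlap.

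Of 15 genes for protease activation, folding and haem synthesis, 3 were higher without overlap, among them Alad, an early enzyme of haem synthesis (7.06 ± 0.12 and 5.65 ± 0.24), and 1 was lower, Fech, the last enzyme of that pathway (6.77 ± 0.11 and 8.10 ± 0.60). Ctsc, which activates the proteases, had means of 10.82 ± 0.14 and 11.14 ± 0.12 with overlap. Of 21 genes for the sugar chains of serglycin, 0 were higher and 3 lower without overlap, led by Ext1, a heparan sulphate polymerase (7.54 ± 0.18 and 8.52 ± 0.12), and Xylt1, which starts the chains (7.13 ± 0.20 and 8.06 ± 0.19). 3 of the 21 thus had no overlap, beside 14% of all genes in either direction and 6.59% lower. The 21 come from a fixed list, and a place on it does not show that a gene acts on serglycin in these cells. The median of this list was -0.22, on the same side as Srgn. Its largest difference went against Srgn, that of Chst13 (6.40 ± 0.28 and 5.30 ± 0.60, with overlap). Of 17 sorting and release genes, 2 were higher, Rab27a, a GTPase of granule release (9.29 ± 0.13 and 8.31 ± 0.23), and Rab44 (6.45 ± 0.071 and 5.66 ± 0.31), and 3 were lower, led by Stxbp3 (6.91 ± 0.14 and 7.74 ± 0.38) and Ap3d1 (7.98 ± 0.099 and 8.55 ± 0.062).

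Of 20 transcription factors on a fixed list drawn up for primary granule genes, 3 were higher without overlap and 2 lower. A place on that list does not show that a factor acts on these genes. Myb, which keeps precursors dividing, ranged over 7.79 to 8.10 on arrays of the Xist set and over 3.52 to 4.12 on those of the Y set, a difference of 4.14. Cebpe, a C/EBP factor of granulocyte maturation, had means of 7.03 ± 0.23 and 5.67 ± 0.41, and Cbfb, the partner of RUNX proteins, 8.68 and 8.15. Egr1, an immediate early factor, was lower, from 8.97 ± 1.60 in the Y set to 4.94 ± 0.20 in the Xist set, as was Spi1, which encodes PU.1, by a smaller amount (10.99 and 11.34). Jun had means of 8.09 ± 0.47 and 9.25 ± 0.87 with overlap, and the median of the list was -0.031.

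**Figure D4:**
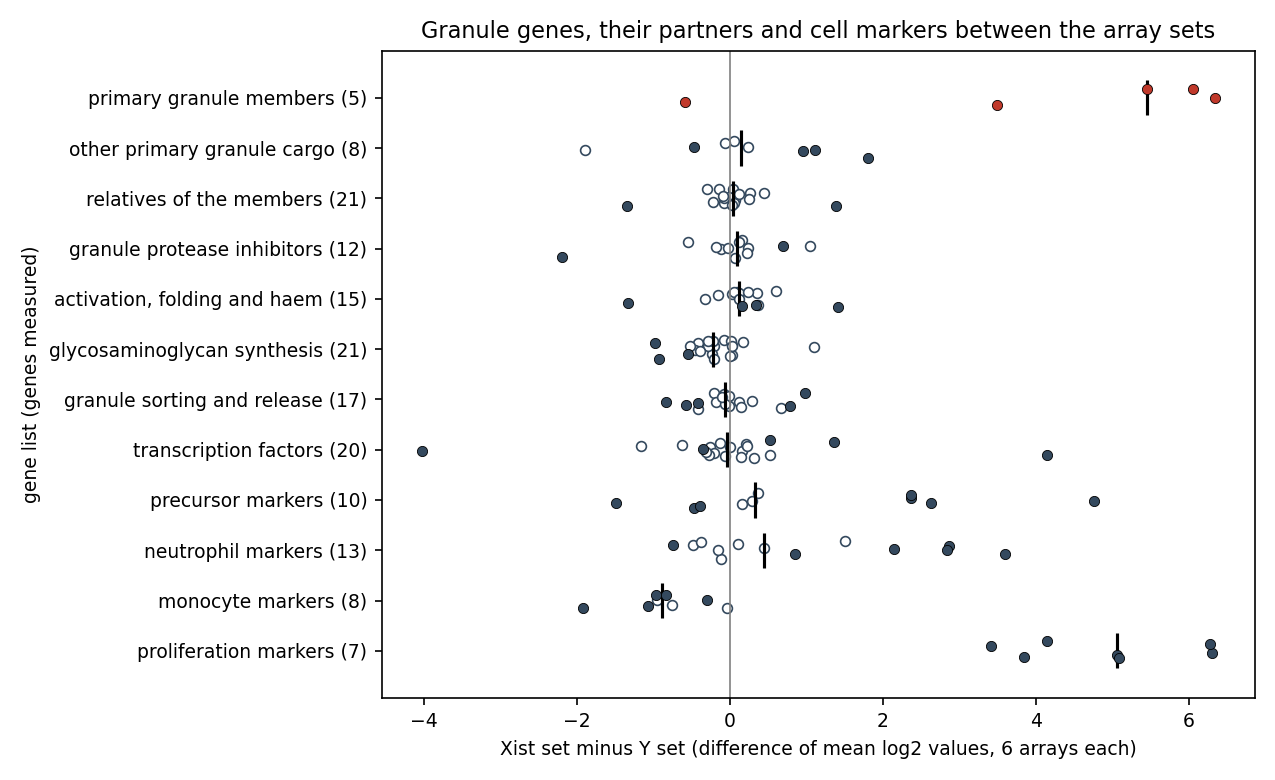
Difference of set means, Xist set minus Y set, on the log2 scale (horizontal axis, 6 arrays each) for every measured gene of 12 lists (vertical axis, number of genes in brackets); filled points are genes whose 12 arrays do not overlap between the sets, open points those that do, and bars are list medians. The 4 enzyme genes, chosen with this difference in view, lie at 3.49 to 6.34, within or close to the range of the proliferation markers. Medians of the other granule lists lie between -0.22 and 0.15, while their single genes reach -4.03 (Egr1) and 4.14 (Myb).

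Markers of other cells and of dividing cells differed between the sets beside the granule genes. Of all genes, 7.45% were higher in the Xist set without overlap and 6.59% lower. These are the shares for the counts in this paragraph and the next. All 7 proliferation markers were higher in the Xist set without overlap, with list means of 9.46 to 9.55 on its arrays and 4.15 to 5.64 on those of the Y set. Of 10 precursor markers 4 were higher, among them Ms4a3, a marker of granulocyte-monocyte progenitors (8.11 ± 0.20 and 3.36 ± 0.34), and Fcnb, a ficolin of early granulocytes (8.58 ± 0.32 and 5.95 ± 0.60), and 3 were lower, led by Flt3, a progenitor receptor (5.31 ± 0.25 and 6.79 ± 0.35). List means were 7.29 to 7.52 and 6.31 to 6.51. Of 13 neutrophil markers 5 were higher, led by Camp, a secondary granule gene (6.72 ± 0.63 and 3.13 ± 0.26), and 1 lower, Cd177. List means were 6.85 to 7.42 and 5.89 to 7.04, and Ly6g, the marker by which mouse neutrophils are sorted, had means of 3.52 and 3.07 with overlap. Of 8 monocyte markers 0 were higher and 5 lower, led by Nr4a1 (8.70 ± 0.45 and 10.61 ± 0.81). Their list means were 9.77 to 10.14 and 10.60 to 11.09. RMA values have no true 0, so no marker could be called absent. The part of these cells and of cell division in the granule gene differences was not tested.

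Of 10 markers of basophils, mast cells and eosinophils 2 were higher without overlap, Prg2, an eosinophil granule protein gene (6.37 ± 1.15 and 3.72 ± 0.28), and Mcpt8, with list means of 3.71 to 4.13 and 3.24 to 3.44. Of 9 natural killer and T cell markers 1 was higher (Nkg7) and 3 lower, led by Trac (3.60 ± 0.30 and 5.68 ± 0.75). These markers had list means of 3.92 to 4.38 and 4.26 to 4.82. B cell markers had 5.05 to 5.35 and 5.48 to 6.40, with 1 of 3 lower (Cd79a). None of the 60 measured genes of the 7 marker lists passed limma for genotype in either fit; 0 had an unadjusted p below 0.05 without the block and 4 in the blocked fit, or 6.67%, near the 5.28% of all genes.

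The genes whose profiles over the 12 arrays were nearest to those of the enzymes, by the mean absolute difference of log2 values after each gene's own mean was subtracted, were named by rank. For Mpo they were Xist, which defined the sets (0.17), Cdk1 (0.21) and Top2a (0.32). For Elane they were Ccna2, a mitotic cyclin (0.18), Cdk1 (0.22) and Nuf2 (0.24), and for Ctsg Cdca8 (0.17), Ndc80 (0.23) and Bub1 (0.26), which act at the kinetochore or centromere. For Prtn3 they were Ska3 (0.26), Knl1 (0.27) and Cdkn3 (0.27). The nearest to Srgn were Itprid2 (0.074), Lrrfip1 (0.078) and Ifitm6 (0.084). With arrays in 2 separate sets this measure mostly finds genes with a like set difference, 5.15 for Cdca8 beside 5.45 for Ctsg, for example.

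Prtn3 and Elane are neighbours on chromosome 10, and Ctsg lies on chromosome 14 among granzyme and mast cell protease genes. Without overlap, 7.45% of all genes were higher in the Xist set and 6.59% lower, 14% in either direction. Of the 23 other measured genes within 3 protein-coding places of the 5, 4 were higher in that set without overlap and 0 lower. Beside Prtn3 these were Plppr3 (6.59 and 5.94) and Ptbp1 (10.25 and 9.86), beside Ctsg Mcpt8, and beside Srgn Vps26a (9.41 and 9.19). The set difference of these 23 neighbours ran from -0.32 to 1.39. That is below the difference of each enzyme gene, but the enzyme genes were chosen with this difference in view.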

How the data were processed

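Expression was measured in blood monocytes on single-colour arrays, from 900 pg of total RNA amplified and biotinylated, per the labels' protocols. The deposited values are log2 expression, 1 per gene feature; the authors used RMA and Partek, per the submitters' processing notes. Neither versions nor a batch step are stated there. RMA equalises the distribution of arrays and compresses differences of dim features. Arrays carry no counting depth: their number and the signal over background limit precision.

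Of 24479 features 23281 carry 1 gene symbol, 0 several and 1198 none. For 2 symbols with several features the brighter was kept, leaving 23279 genes. The model, fitted in R 4.3.3 by limma 3.58.1 (lmFit, then eBayes), held genotype alone over 12 arrays, with threshold 0.05 after Benjamini-Hochberg adjustment over all genes. Other fits used the array set as a block, each set alone or an interaction. The fitting code was tested on simulated data. Figures used matplotlib 3.10.9.

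The 5 genes, the lists and the array sets were chosen with earlier results of these data known. Genes to name were set by rule as the 5, the 3 nearest profiles to each, and Trim33. Of each list, the rule gave those past the threshold and those with the 2 largest set differences each way. The naming is not complete. Of these list genes, Igsf6, Gzmk, Prss34, Serpina3f, Cpox, B3galt6, Mmp8, Klrb1c, Ms4a1 and Ms4a2 are not described above. Further list genes, all neighbours and the fit of the Y set without 1 array were added after the data were seen. Promoter sequences are RefSeq's, GRCm38.p6. Listed genes without a value are not analysed here.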

Additional observations from a re-analysis of the deposited data

How the results depend on the processing

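No genotype difference of the 5 genes and no interaction passed limma's threshold in any of the 39 and 15 alternatives run for each (lowest adjusted p = 0.563). Signs near 0 turned: Mpo differed by 0.061 in the Xist set and 0.063 in the mixes, and Srgn by -0.056 in the Y set, -0.049 after quantile normalization, -0.076 in the Y set without TRIM33 replicate 2 and -0.027 in the mixes, the mixes giving the same values with the mix number as a replicate block. With that block the mixes gave 0.87 for Elane, 1.21 for Prtn3 and 1.11 for Ctsg (limma adjusted p = 0.717, 0.743 and 0.563). Each array left out in turn gave, over fits with and without the array set as a block, -0.70 to 0.66 for Mpo, -0.26 to 1.15 for Elane, -0.014 to 0.93 for Prtn3, -0.22 to 1.06 for Ctsg and -0.085 to 0.13 for Srgn; within the Y set without TRIM33 replicate 2, Prtn3 differed by -0.053. Without the block, leaving out 1 array unbalances the sets by construction. With it the ranges were -0.11 to 0.033, 0.21 to 0.56, 0.14 to 0.60, 0.20 to 0.52 and -0.029 to 0.074. The interaction ranged from -0.033 to 0.29 for Mpo, -0.80 to -0.011 for Elane, -0.67 to 0.35 for Prtn3, -0.89 to -0.16 for Ctsg and -0.0015 to 0.23 for Srgn.

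Over all genes limma called 5 by genotype, 9 with the array set as a block, 3 in the Xist set, 8 in the Y set, 3 in the Y set without TRIM33 replicate 2, and 3 without moderation. With 1 array left out it called 5 to 9 in the fit of genotype alone and 9 to 15 with the block, both highest without TRIM33 replicate 4. In the arrays not titled as mixes, which come from both sets and were fitted without the block, it called 0, with 565 at an unadjusted p under 0.05. The mixes gave 7 without and 10 with the mix number as a replicate block; same-numbered mixes share a number only, and their deviations correlated at 0.12 across genes. The interaction called 1 gene, 0 among genes above the median mean, and 0 to 2 with an array left out; in the 6 fits with 0 calls, 486 to 1175 genes had an unadjusted p under 0.05. Trim33 itself passed in 33 of 39 alternatives and missed the threshold in 6, while its difference stayed between -0.83 and -0.76 in all 39. The misses included each set alone, with -0.79 in both (limma adjusted p = 0.227 in the Xist set and 0.134 in the Y set). Pearson's r named 3 of the 15 nearest genes. The cause of these shifts was not tested. All 2450 set differences of 175 listed genes under other settings moved by less than 1 SD between arrays, taken as the mean of both sets' SDs. Leaving out 1 of a set's 6 arrays cannot move a difference that far, so for those settings the outcome was fixed in advance. The remaining settings re-normalised values that RMA had already normalised. These moves are therefore no measure of how stable the set differences are.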

Other observations

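The deposited Mpo value is the same to every digit on TRIM33 replicate 3 and WT replicate 6, at 5.02. A value shared by 2 or more arrays was found for 491 genes, 2.11% of those measured, and for none of the other 4 granule genes. Those arrays share a value for 16 genes in all, so they are not copies of each other.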
